A study of Mus musculus with 4 samples.

Results

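Expression of the CC chemokines of myeloid cells was examined in primary mouse hematopoietic stem and progenitor cells (HSPCs) from which the CAF-1 subunit Chaf1b had been deleted. The group consists of 9 named genes, the ligands Ccl2, Ccl3, Ccl4, Ccl5, Ccl6, Ccl7, Ccl9 and Ccl12 and the receptor Ccr1, taken by symbol, and all 9 were matched among the 43629 gene identifiers counted. Cells carrying CD117, the receptor for stem cell factor, came from C57Bl/6 mice whose Chaf1b alleles were floxed (fl/fl). In both groups they were grown in StemSpan SFEMII medium with SCF (50 ng/mL), IL-6 (20 ng/mL by the labels, while the study's methods give another dose), IL-3 (10 ng/mL) and low-density lipoprotein. The MIGR1 control group (n = 2 libraries) received the empty MIGR1 retroviral vector by spinfection, and the Chaf1b deleted group (n = 2 libraries, genotype Chaf1b -/-) received MIGR1 with Cre recombinase. In both groups eGFP+ cells, those that carried the vector, were sorted 48 h later, and ribosome-depleted total RNA was sequenced. Cre was delivered by the vector to any cell it entered, so the deletion was not limited to a cell type, and an effect of Cre itself cannot be told apart from that of the deletion because the control vector has no Cre. The labels give neither the age nor the sex of the mice and do not say whether replicates came from separate animals, and p-values measure only the spread between these libraries, which between the controls may be technical.

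CC chemokines are small secreted proteins that bind G protein-coupled receptors on leukocytes, set up gradients on the tissue matrix and direct the cells towards their source. Monocytes, macrophages, neutrophils and their precursors are major producers, and many of the genes are induced through NF-kB after inflammatory stimuli. Ccr1 is a receptor for Ccl3, Ccl5, Ccl6, Ccl7 and Ccl9, and Ccl2, Ccl7 and Ccl12 are ligands of Ccr2, which guides monocytes out of the bone marrow.

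The libraries held 22736626 and 25409926 counts on genes in the controls and 23539015 and 18468637 after deletion. A count of 3 in a library, taken here as the floor, corresponded to between 0.118 and 0.162 CPM, that is counts relative to all of those on genes. Counts of Chaf1b were 1825 and 1471 under the empty vector and 378 and 330 under Cre, as labelled, and its level was lower by 2.01 in log2 units (standard error, SE, 0.25; adjusted p = 0.0330, edgeR quasi-likelihood, Benjamini-Hochberg adjustment). Chaf1a, the partner subunit, had 2735 and 2158 counts in the controls and 1893 and 1264 after deletion, and its groups overlapped after scaling by edgeR's TMM factors (log2 fold change -0.43). Kit, which encodes CD117 and was looked up after its values were seen, had between 2251 and 3161 counts in every library. Cells were sorted after culture for eGFP, and the labels name no second selection for CD117, and S100a9, a gene of maturing neutrophils, was present at between 15166 and 25184 TMM-scaled CPM, and a mixture of cells cannot be told apart in bulk RNA from cells that express both.

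The members' values depend on 2 libraries that stood apart. Chaf1b deleted replicate 1 had 7905 counts of Xist, against 23 to 33 in the others, and 3 counts on the 4 listed Y-linked genes, against 5805 to 7771. This is the pattern of female cells, and the other 3 libraries had that of male cells, so sex differed between the deleted libraries and its part in their differences was not tested. It also lay farther from both controls than Chaf1b deleted replicate 2 did (root mean square log2 distance over tested genes 0.93 and 0.94, against 0.76 and 0.77), while the controls lay 0.60 from each other. MIGR1 control replicate 2 stood apart in macrophage genes, for example C1qa, a complement gene of tissue macrophages chosen after its values were seen, which had 15 counts in control replicate 1, 589 in control replicate 2, 249 in deleted replicate 1 and 8 in deleted replicate 2. The members' log2 fold changes are therefore given with all libraries and without each of these 2 libraries. No pair of replicates was the same library counted again, since the chi-square between counts, divided by its degrees of freedom, was 43.1 for the controls and 64.4 for the deleted libraries.

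With all 4 libraries, 6 of the 9 members lay above both controls in each deleted library, namely Ccl3, Ccl4, Ccl5, Ccl6, Ccl9 and Ccr1, whereas 22.3% of the 16500 genes tested had this order. No member had both deleted libraries below both controls, an order found for 21.4% of tested genes. The other 3 members, Ccl2, Ccl7 and Ccl12, overlapped between the groups. All 9 passed edgeR's low-count filter, and none was a differentially expressed gene (DEG), defined by a change of at least 1.5-fold and an adjusted p-value under 0.05, in edgeR's quasi-likelihood test, which called 0.37% of tested genes higher and 0.00606% lower. At an unadjusted p-value under 0.05 the same 6 members were higher and none was lower, against 9.15% and 3.1% of tested genes. Of these 6, Ccl5 reached the filter's level in the deleted libraries only, so a higher value there was a condition of its being tested. The median log2 fold change of the members was 1.04, beside -0.03 over all tested genes. It was 0.63 without deleted replicate 1, 1.82 without deleted replicate 2, 0.70 without control replicate 1 and 2.10 without control replicate 2.

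**Figure D1:**
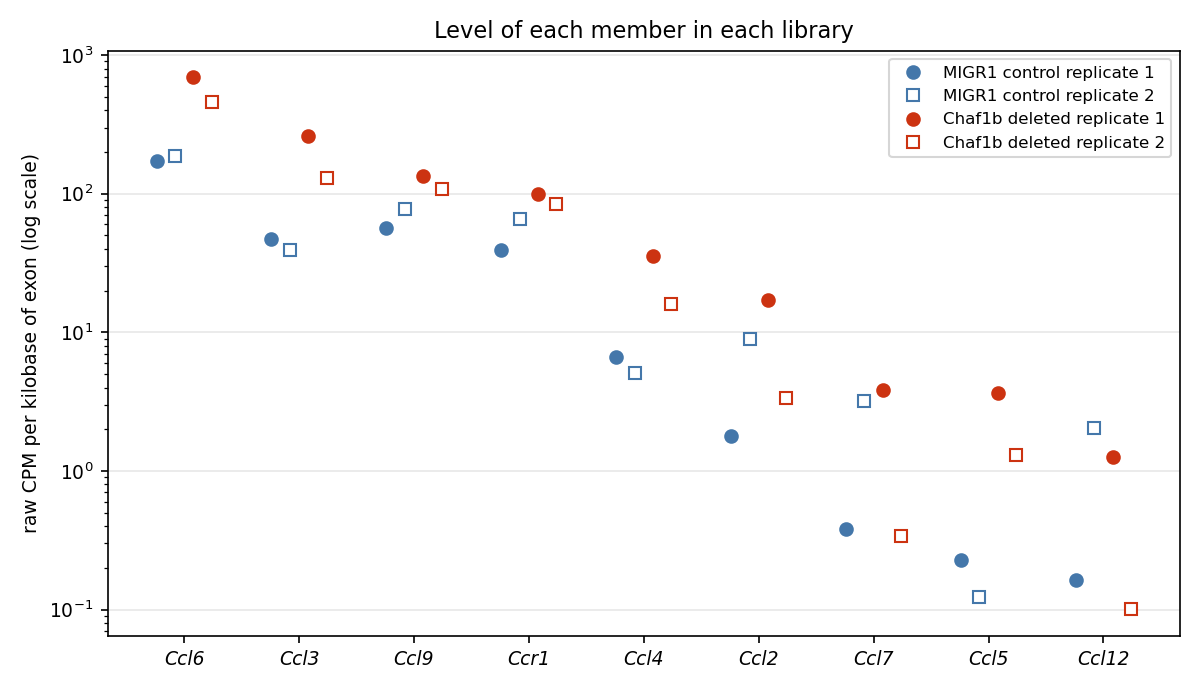
Level of each member in each library, as raw CPM per kilobase of exon on a log scale, with the members ordered by their mean over the 4 libraries. Circles are replicate 1 and squares replicate 2. Ccl6 is highest in every library, and for Ccl2, Ccl7 and Ccl12 control replicate 2 lies near deleted replicate 1 and not near control replicate 1.

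Ccl6 and Ccl9 are close relatives found in rodents, expressed constitutively by myeloid cells, and both act on Ccr1. Their promoters are shown because the genes are neighbours on chromosome 11 that differed in the same direction by unequal amounts. RefSeq gives 300 bases, from 250 before to 50 after the start, for 5 of the 9 members (Ccl3, Ccl6, Ccl9, Ccl12 and Ccr1), and Ccl2, Ccl4, Ccl5 and Ccl7 have no entry in the table used. The sequences are from GRCm38.p6, on the minus strand of chromosome 11, at chr11:83593038-83593337 for Ccl6 and chr11:83578587-83578886 for Ccl9, and capitals mark the stretch that aligns between the promoters.
Ccl6: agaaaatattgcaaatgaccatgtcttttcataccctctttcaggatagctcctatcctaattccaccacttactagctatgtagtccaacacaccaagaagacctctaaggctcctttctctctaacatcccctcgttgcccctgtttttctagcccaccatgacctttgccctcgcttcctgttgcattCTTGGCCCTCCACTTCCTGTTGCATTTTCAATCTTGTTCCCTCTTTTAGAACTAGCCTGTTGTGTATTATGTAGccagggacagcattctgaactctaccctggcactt
Ccl9: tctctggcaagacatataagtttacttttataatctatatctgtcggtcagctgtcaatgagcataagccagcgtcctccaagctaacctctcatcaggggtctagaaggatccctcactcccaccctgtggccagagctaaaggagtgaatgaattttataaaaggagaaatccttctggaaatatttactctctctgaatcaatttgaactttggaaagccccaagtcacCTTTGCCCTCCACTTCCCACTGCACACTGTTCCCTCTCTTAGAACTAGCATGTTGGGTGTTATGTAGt
The best local alignment covered 74 columns, of which 58 (78.4%) were identical and 7 held a gap. It ran from position -59 to 15 in Ccl6 and from -18 to 49 in Ccl9, counted from the annotated start with no position 0, so the shared stretch sits at different distances from the annotated starts. The letters AGGAAG, the core that ETS factors bind, occurred on the strand opposite to the gene's at -73 to -68 and -47 to -42 in Ccl6. They were not in this window of Ccl9, and 35.4% of the 32851 RefSeq promoters of this length hold them on either strand. TATAAA, the TATA box letters, had 3 matches in Ccl9, 2 of them overlapping on opposite strands, and none in Ccl6 (13.6% of promoters). A match to the NF-kB consensus, searched by name on both strands, lay at -35 to -26 of Ccl9, on the strand opposite to the gene's (8.46% of promoters). Such matches are descriptions of letters, not sites or causes.

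Ccl6 had 7071 and 8502 counts in the controls and 29213 and 15119 after deletion. As raw CPM the controls had 311 (304 to 318, a 95% Wilson interval) and 335 (328 to 342), and the deleted libraries 1241 (1227 to 1255) and 819 (806 to 832), where intervals here and below cover counting error only. The controls lay close together and both deleted libraries were well above them, with replicate 1 the higher. After TMM scaling the means were 320 ± 12.4 CPM (SD, n = 2) and 1056 ± 403 CPM (SD, n = 2), which is 1.72 in log2 units (SE 0.31) and short of the threshold (adjusted p = 0.0801, edgeR quasi-likelihood, Benjamini-Hochberg adjustment). Without deleted replicate 1 the log2 fold change was 1.26 and passed it (adjusted p = 0.0298 in the same edgeR test and Benjamini-Hochberg adjustment), and without control replicate 2 it was 1.76 and did not (adjusted p = 0.0693). Over all alternatives for Ccl6, adjusted p-values with Benjamini-Hochberg adjustment ranged from 2.1e-07 with edgeR and no low-count filter to 0.169, again with edgeR.

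Ccl9 showed the same order with a smaller difference. Raw CPM were 172 (95% Wilson interval 167 to 177) and 235 (229 to 241) with the empty vector and 407 (399 to 415) and 332 (324 to 340) with Cre. The deleted libraries lay above the controls, but on a log2 scale the gap to the nearer control was not much wider than that between the controls. The log2 fold change was 0.90 (SE 0.26, adjusted p = 0.222, edgeR quasi-likelihood, Benjamini-Hochberg adjustment), 0.63 without deleted replicate 1 and 1.13 without control replicate 2. Per kilobase of exon, Ccl6 stood at 3.07 and 2.42 times the level of Ccl9 in the controls and at 5.18 and 4.19 times after deletion. For Ccl9, 8.33% of the exonic stretches of 31 bases occur elsewhere in the genome, against 1.55% for Ccl6, so its counts are less certain. Ccl6 overlaps the annotated gene E230016K23Rik on the other strand, which had between 17 and 41 counts a library.

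Ccl3 and Ccl4, inflammatory chemokines of activated myeloid cells, lie side by side, and Ccl3 is also known to restrain the proliferation of early progenitors. The promoter of Ccl3 is shown because its gene had the smallest adjusted p-value of the members. It is from GRCm38.p6, minus strand of the chromosome, at chr11:83649329-83649628. The capitals mark the single match among the 4 motifs searched, GAAANNGAA of interferon response elements, read on the strand opposite to the gene's at -39 to -31.
Ccl3: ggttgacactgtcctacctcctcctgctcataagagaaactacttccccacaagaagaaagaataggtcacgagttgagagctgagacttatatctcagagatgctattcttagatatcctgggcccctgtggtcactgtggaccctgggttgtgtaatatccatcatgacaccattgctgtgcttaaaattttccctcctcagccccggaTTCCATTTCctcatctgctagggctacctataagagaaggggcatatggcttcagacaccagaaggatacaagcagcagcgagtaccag
GAAANNGAA occurs on either strand in 8.56% of RefSeq promoters of this length, and among the 5 members with an entry it was found in Ccl3 alone. The NF-kB consensus, AGGAAG and TATAAA are not in this window of Ccl3, which says nothing of the factors.

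Ccl3 had 818 and 768 counts in the controls and 4701 and 1844 after deletion, or 36.0 (95% Wilson interval 33.6 to 38.5) and 30.2 (28.2 to 32.4) raw CPM against 200 (194 to 206) and 99.8 (95.4 to 105). The controls were alike and both deleted libraries were far above them, replicate 1 the more so. The log2 fold change was 2.24 (SE 0.38) and missed the threshold (adjusted p = 0.0711, edgeR quasi-likelihood, Benjamini-Hochberg adjustment). Without deleted replicate 1 it was 1.51 and passed (adjusted p = 0.0293, same edgeR test and Benjamini-Hochberg adjustment), and it passed in each of the other fits with a library left out, where it lay between 2.10 and 2.73. Over all alternatives for Ccl3 the Benjamini-Hochberg adjusted p ranged from 1.7e-13 with edgeR and no low-count filter to 0.113 with edgeR and at least 10 counts in every library.

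Ccl4 followed Ccl3 at a lower level. It had 100 and 85 counts in the controls and 553 and 196 after deletion, which is 4.40 (95% Wilson interval 3.62 to 5.35) and 3.35 (2.71 to 4.14) raw CPM against 23.5 (21.6 to 25.5) and 10.6 (9.23 to 12.2). Both deleted libraries lay above both controls, again with replicate 1 highest. Per kilobase of exon, Ccl4 stood at between 0.123 and 0.142 times the level of Ccl3 in every library. The log2 fold change of Ccl4 was 2.20 (SE 0.48, adjusted p = 0.123, edgeR quasi-likelihood, Benjamini-Hochberg adjustment), 1.37 without deleted replicate 1 and 2.01 without control replicate 2.

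Ccl5, a chemokine of activated T cells, NK cells and macrophages, was near the floor in the controls. It had 5 and 3 counts there and 83 and 23 after deletion, that is 0.220 (95% Wilson interval 0.0939 to 0.515) and 0.118 (0.0402 to 0.347) raw CPM against 3.53 (2.84 to 4.37) and 1.25 (0.830 to 1.87). Both deleted libraries were above both controls beyond their counting intervals. Over the summed counts, 8 in the controls and 106 after deletion, the ratio of CPM was 15.2 (95% exact interval 7.43 to 36.1, counting error only). The fitted log2 fold change of 3.87 (SE 0.81, adjusted p = 0.115, edgeR quasi-likelihood, Benjamini-Hochberg adjustment) depends on the few control counts and on a filter that Ccl5 passed by its deleted libraries alone. It was 2.77 without deleted replicate 1 and 3.47 without control replicate 2.

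Ccr1, the receptor of 5 of these ligands on monocytes and neutrophils, lies on chromosome 9. Raw CPM were 111 (95% Wilson interval 107 to 116) and 186 (181 to 192) with the empty vector and 284 (277 to 290) and 238 (231 to 245) with Cre. Deleted libraries were above controls, but control replicate 2 was nearer to deleted replicate 2 than to control replicate 1. The log2 fold change was 0.85 (SE 0.29, adjusted p = 0.296, edgeR quasi-likelihood, Benjamini-Hochberg adjustment), with 0.60 when deleted replicate 1 and 1.25 when control replicate 2 was left out. Its promoter held the only match to the NF-kB consensus on the gene's own strand among the 5, at -74 to -65.

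**Figure D2:**
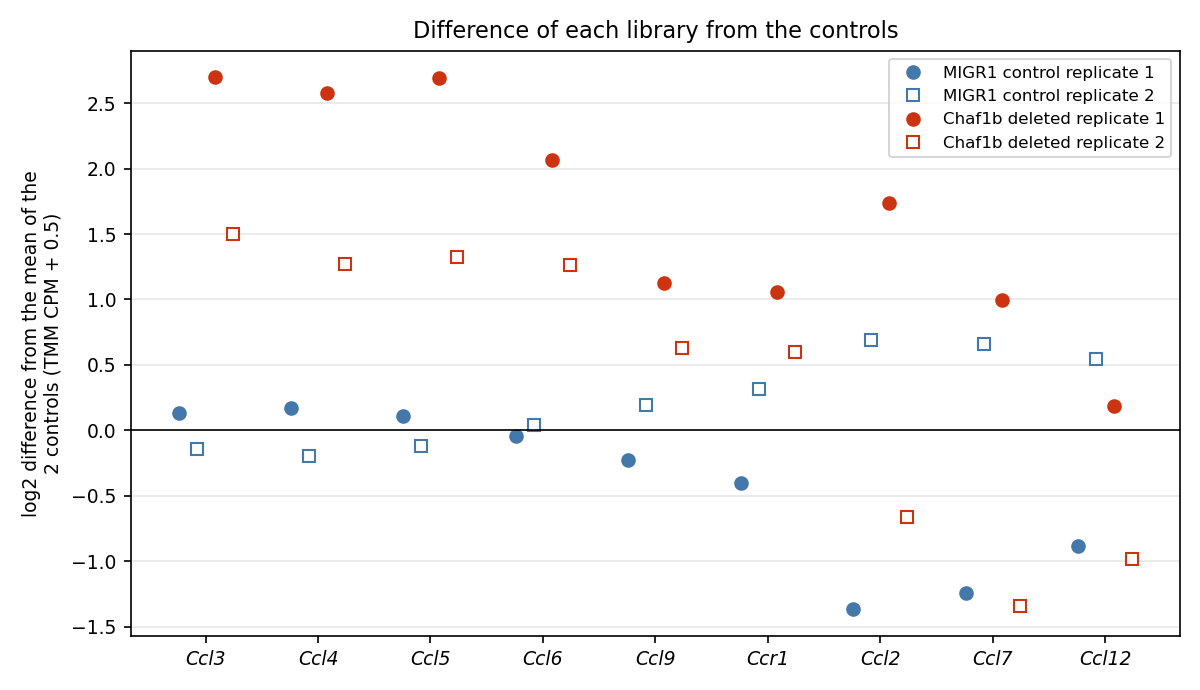
Difference of each library from the mean of the 2 controls, as log2 of TMM-scaled CPM plus 0.5, for each member. Both deleted libraries lie above both controls for the 6 members on the left, and control replicate 2 and deleted replicate 1 lie above the other libraries for Ccl2, Ccl7 and Ccl12.

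Ccl2, Ccl7 and Ccl12, the monocyte chemoattractants that act on Ccr2, had another order. Ccl2 had 46 and 258 counts in the controls and 461 and 71 after deletion, or 2.02 (95% Wilson interval 1.52 to 2.70) and 10.2 (8.99 to 11.5) raw CPM against 19.6 (17.9 to 21.5) and 3.84 (3.05 to 4.85). Ccl7 had 7 and 65 counts in the controls and 72 and 5 after deletion. Ccl12 had 2 and 28 counts in the controls and 16 and 1 after deletion. In each of them control replicate 2 and deleted replicate 1 were the high libraries and the groups overlapped. Between the controls the log2 difference (TMM-scaled CPM plus 0.5) was 2.05 for Ccl2, 1.90 for Ccl7 and 1.43 for Ccl12, and between the deleted libraries it was 2.39, 2.33 and 1.16. The same measure between the controls lay between -0.37 and 0.71 for the other 6 members.

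The fitted log2 fold change of Ccl2 was 1.04 (SE 0.88, adjusted p = 0.703, edgeR quasi-likelihood, Benjamini-Hochberg adjustment). It was -0.74 without deleted replicate 1 and 2.61 without control replicate 2, and the latter passed the threshold (adjusted p = 0.0025 in the same edgeR test, against a range from 0.0025 to 1.00 over the alternatives with Benjamini-Hochberg adjustment). With all libraries the fitted log2 fold change was 0.33 (SE 1.14) for Ccl7 and -0.57 (SE 1.22) for Ccl12. For Ccl7 the ratio of CPM over summed counts was 1.23 (95% exact interval 0.877 to 1.71) and for Ccl12 it was 0.649 (0.336 to 1.22). These intervals cover counting error only and not the wider spread between libraries. With a library left out the log2 fold change lay between -2.46 and 2.52 for Ccl7 and between -3.42 and 2.11 for Ccl12. For both genes the lower value was without deleted replicate 1 and the higher without control replicate 2. Ccl2 overlaps the annotated gene Gm17268 on the other strand, which had at most 3 counts in a library.

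**Figure D3:**
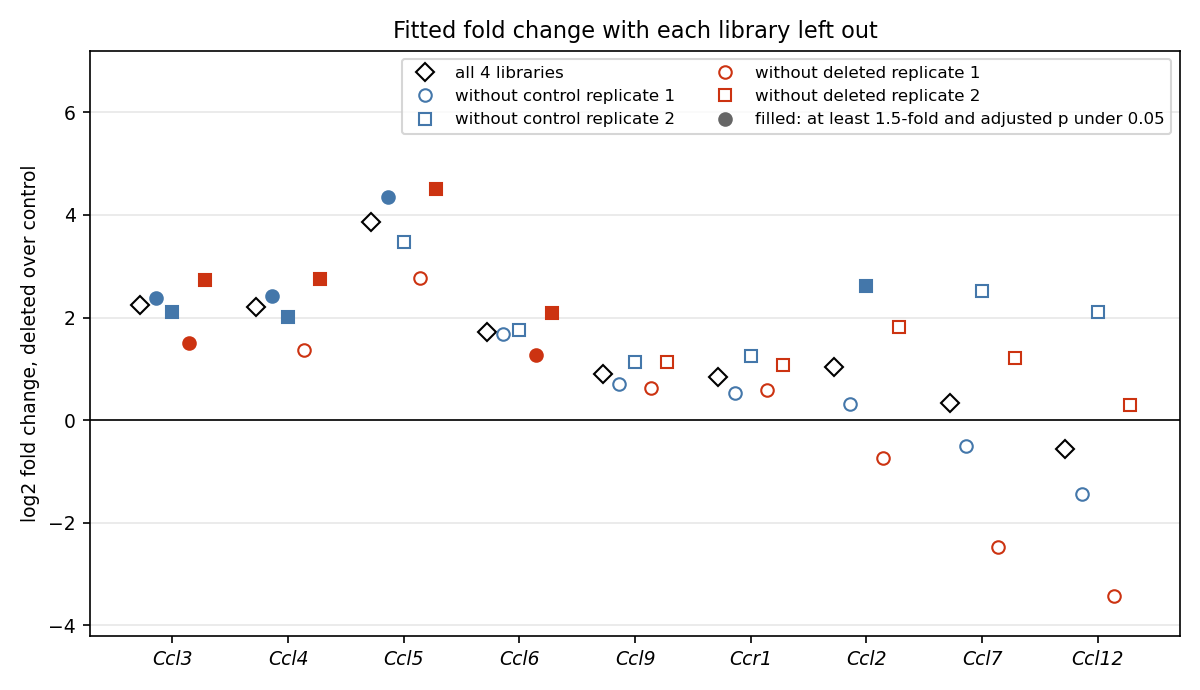
Fitted log2 fold change of each member with all 4 libraries (diamonds) and with each library left out. Filled symbols are DEGs in that fit. Ccl3 is filled in all 4 fits with a library left out, and Ccl2, Ccl7 and Ccl12 lie on both sides of 0.

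Whether members were called depended on the fit. Ccl3 and Ccl6 were DEGs without deleted replicate 1, where 0.721% of tested genes were called higher. Ccl3, Ccl4, Ccl5 and Ccl6 were DEGs without deleted replicate 2 (1.89% of tested genes), Ccl3, Ccl4 and Ccl5 without control replicate 1 (1.6%), and Ccl2, Ccl3 and Ccl4 without control replicate 2 (1.92%). Fits with a library left out assume that the lone library varies like those of the other group. Ccl3, Ccl4, Ccl5 and Ccl6 were also called by edgeR's exact test (3.25% of tested genes) and by DESeq2 (2.86%), and without a low-count filter Ccl9 and Ccr1 joined them (2.57%). No member was called with DESeq2 size factors (0.164%), with library size alone (0.182%) with at least 10 counts in every library (0.0211%) or with the replicate number as a block (0.0848%), all with edgeR's quasi-likelihood test. No member was called lower in any of these fits.

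All members were higher in the deleted library that stood apart. Deleted replicate 1 was above deleted replicate 2 in 9 of 9, against 49.3% of tested genes. Deleted replicate 2 and control replicate 1, not set apart above by sex-linked or macrophage genes, were compared alone, chosen after seeing the data and without a test. They differed in other measures. Control replicate 1 had counts on 28597 genes, against 23111 to 24692 in the others. Deleted replicate 2 had 48.3% of uniquely aligned reads on no feature, against 35.8% to 42.3%. Between these 2 libraries the log2 difference in TMM-scaled CPM plus 0.5 was 1.37 for Ccl3, 1.31 for Ccl6, 1.22 for Ccl5, 1.10 for Ccl4, 1.00 for Ccr1 and 0.86 for Ccl9. By the same measure Ccl2 differed by 0.71, Ccl7 by -0.10 and Ccl12 by -0.09.

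Levels between genes were compared per kilobase of exon, as raw CPM. In the controls Ccl6 led with 173 and 186, followed by Ccl9 with 56.5 and 77.1, Ccl3 with 47.0 and 39.5 and Ccr1 with 39.3 and 65.9, whose range overlapped those of Ccl9 and Ccl3. After deletion Ccl6 had 691 and 456, Ccl3 261 and 130, Ccl9 134 and 109 and Ccr1 100 and 84.0. Ccl3 was under Ccl9 in both controls and above it in the same library in both deleted libraries, at 0.832 and 0.512 times its level in the controls and 1.95 and 1.20 times after deletion. Ccl4 came next in 3 of the 4 libraries and was under Ccl2 in control replicate 2, and Ccl7, Ccl5 and Ccl12 stayed under 4 in every library. Of the summed level of the 8 ligands, Ccl6 made up between 57.8% and 63.6% in every library, Ccl3 16.4% and 12.2% in the controls, against 22.7% and 18.2% after deletion, and Ccl9 19.8% and 23.9% against 11.6% and 15.2%.

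The ligand genes form a pair of groups on chromosome 11. In NCBIM37, the genome build mm9, Ccl2, Ccl7 and Ccl12 lie at one end, from 81849073 to 81916902, and Ccl5, Ccl9, Ccl6, Ccl3 and Ccl4 follow after a gap of 1422 kb, from 83339280 to 83478185. With all libraries the 5 ligands of the second group lay above both controls in each deleted library and the 3 of the first overlapped, but a difference between the groups of genes was not tested. For Ccl2 the overlap depended on control replicate 2, without which its log2 fold change was 2.61. Ccl7 and Ccl12 were near the floor in 2 libraries each. For both, deleted replicate 2 and control replicate 1 differed little (log2 difference -0.10 and -0.09). These rest on 5 against 7 counts for Ccl7 and 1 against 2 for Ccl12. The counting intervals overlapped, so no direction can be read from them. After TMM scaling, the summed level of the 5 ligands was 524 and 592 CPM in the controls and 2025 and 1188 after deletion, and that of the 3 was 2.42 and 13.6 CPM against 25.2 and 3.93.

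Other genes within 200 kb of the members were also examined, and a difference between them and the members was not tested. There were 41, of which 19 were tested, and none was a DEG in edgeR's quasi-likelihood test, while at an unadjusted p under 0.05 there were 2 higher and 0 lower, beside 9.15% and 3.1% of all tested genes. These were Rpl9-ps1, a ribosomal protein pseudogene 2.22 kb from Ccl3 with 6 and 4 counts in the controls and 13 and 32 after deletion, which passed the filter by its deleted libraries alone, and 1100001G20Rik, named after its values were seen, with a log2 fold change of 0.74. Over the 19 tested the median log2 fold change was 0.13. Of them 6 lay above and 2 below both controls in each deleted library, beside 22.3% and 21.4% of all tested genes. Near Ccr1, Ccr2 had 2319 and 7982 counts in the controls and 2699 and 1604 after deletion and Ccr3 had 6 and 41 against 105 and 12, and for both the groups overlapped. Next to Ccl2 and its neighbours, 0 of 7 genes had enough counts to be tested, Ccl8 and Ccl11, which lie among them, with at most 3 counts in a library.

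**Figure D4:**
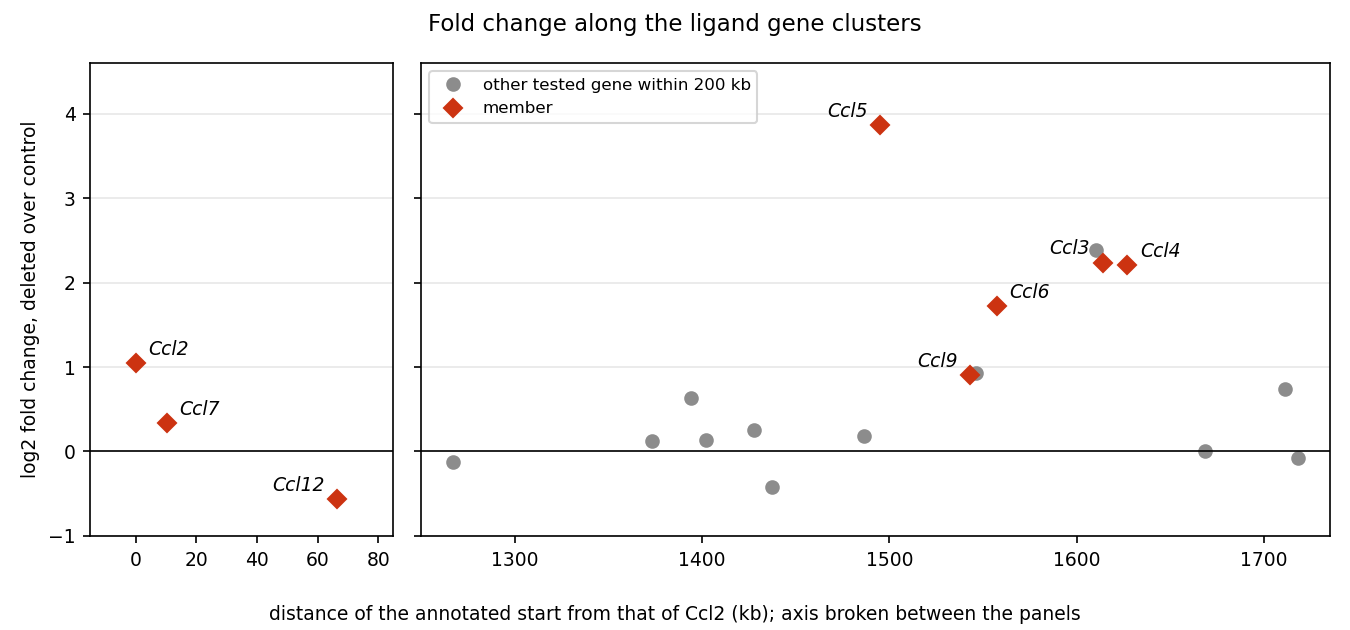
Log2 fold change (deleted over control, all 4 libraries) of members on chromosome 11 and of other tested genes within 200 kb of them, against the distance of the annotated start from that of Ccl2 in kb, with the axis broken between the panels. Ccl5, Ccl6, Ccl3 and Ccl4 lie above 1.5, and so does 1 other gene, the pseudogene Rpl9-ps1.

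Among the other ligands of the CC, C and CX3C families, 13 of 15 listed genes were matched and 6 tested. Of these 1 was called higher and 0 lower, beside 0.37% and 0.00606% of all tested genes. Above both controls in each deleted library lay 4, and 1 lay below, beside 22.3% and 21.4% of all tested genes. Ccl22, a chemokine of mature dendritic cells and macrophages that attracts Ccr4-bearing T cells, had 101 and 158 counts in the controls and 1080 and 592 after deletion, a log2 fold change of 2.91 (SE 0.33, adjusted p = 0.0330, edgeR quasi-likelihood, Benjamini-Hochberg adjustment). Cx3cl1, with 16 and 14 counts against 74 and 72, and Ccl17, with 22 and 30 against 185 and 35, were higher in both deleted libraries and did not pass the test. Ccl24, named after its values were seen, was also high in control replicate 2 and deleted replicate 1, with 88 and 431 counts against 416 and 35. Ccl22 was called in 9 of 11 other fits, with Benjamini-Hochberg adjusted p-values up to 0.0800 in edgeR. The list's median log2 fold change was 1.38, and 0.48 without deleted replicate 1 and 0.53 without a low-count filter. Ccl19 and Ccl20 had no count, which allows up to 0.162 CPM.

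Of 16 other receptors, 11 were tested and none was called, with a median log2 fold change of 0.74. Before adjustment of p at 0.05, 3 were higher and none lower, beside 9.15% and 3.1% of all tested genes. Ccr7, the homing receptor of mature dendritic cells, had 38 and 105 counts in the controls and 825 and 374 after deletion (log2 fold change 3.30, adjusted p = 0.0555, edgeR quasi-likelihood, Benjamini-Hochberg adjustment). Ccr4, the receptor of Ccl22 and Ccl17, had 6 and 12 against 61 and 89 (3.30). Ccr2 was the most abundant receptor of the list per kilobase and was highest in control replicate 2. Among 21 genes of signalling below the receptors, 21 were tested and none was called, and the median was 0.17. At an unadjusted p under 0.05, 3 were higher (Rgs1, Rgs2 and Ptk2b), beside 9.15% of all tested genes. Rgs1, which shortens G protein signals, had 1330 and 726 counts in the controls and 2509 and 2076 after deletion (log2 fold change 1.35).

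Of the NF-kB pathway and its inducers, 18 of 25 genes lay above both controls in each deleted library, beside 22.3% of all tested genes. Of the 25 tested genes 1 was called higher and 0 lower, beside 0.37% and 0.00606% of all tested genes. At an unadjusted p under 0.05 there were 14 higher and none lower, beside 9.15% and 3.1% of all tested genes. Nfkbiz, an inducible co-regulator of NF-kB, had 808 and 769 counts in the controls and 1969 and 1937 after deletion (log2 fold change 1.53, SE 0.21, adjusted p = 0.0413, edgeR quasi-likelihood, Benjamini-Hochberg adjustment). Nfkbiz was called in 7 of 11 other fits, and not with DESeq2 size factors, library size alone, at least 10 counts in every library or the replicate block. Il1b had 292 and 660 against 1526 and 1292, Ptgs2 57 and 212 against 458 and 328, and Traf1 98 and 127 against 349 and 255. Relative to the mean control, the list's median log2 difference was 0.87 in deleted replicate 1 and 0.60 in deleted replicate 2. For the members these medians were 1.74 and 0.63.

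Interferon-stimulated genes differed most in deleted replicate 1. Relative to the mean control, the median log2 difference of 27 tested genes was 3.36 there and 0.14 in deleted replicate 2, and all 27 were over 2-fold higher in the former than in the latter. None was a DEG in edgeR's quasi-likelihood test, with 23 higher at an unadjusted p under 0.05, beside 9.15% of all tested genes. Without a low-count filter 26 were called higher (beside 2.57% of all genes tested in that fit), with edgeR's exact test 11 (3.25%) and with DESeq2 1 (2.86%). The list's median log2 fold change was 2.59, and 0.15 without deleted replicate 1. In deleted replicate 2 the differences were smaller, but 16 of the 27 lay above both controls in each deleted library, beside 22.3% of all tested genes. Isg15 had 29 and 52 counts in the controls, 1014 in deleted replicate 1 and 55 in deleted replicate 2, Ifit1 had 123, 163, 3846 and 75, and Ifit3 had 34, 40, 1751 and 11. The part of this response in the higher values of the members in deleted replicate 1 was not tested.

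**Figure D5:**
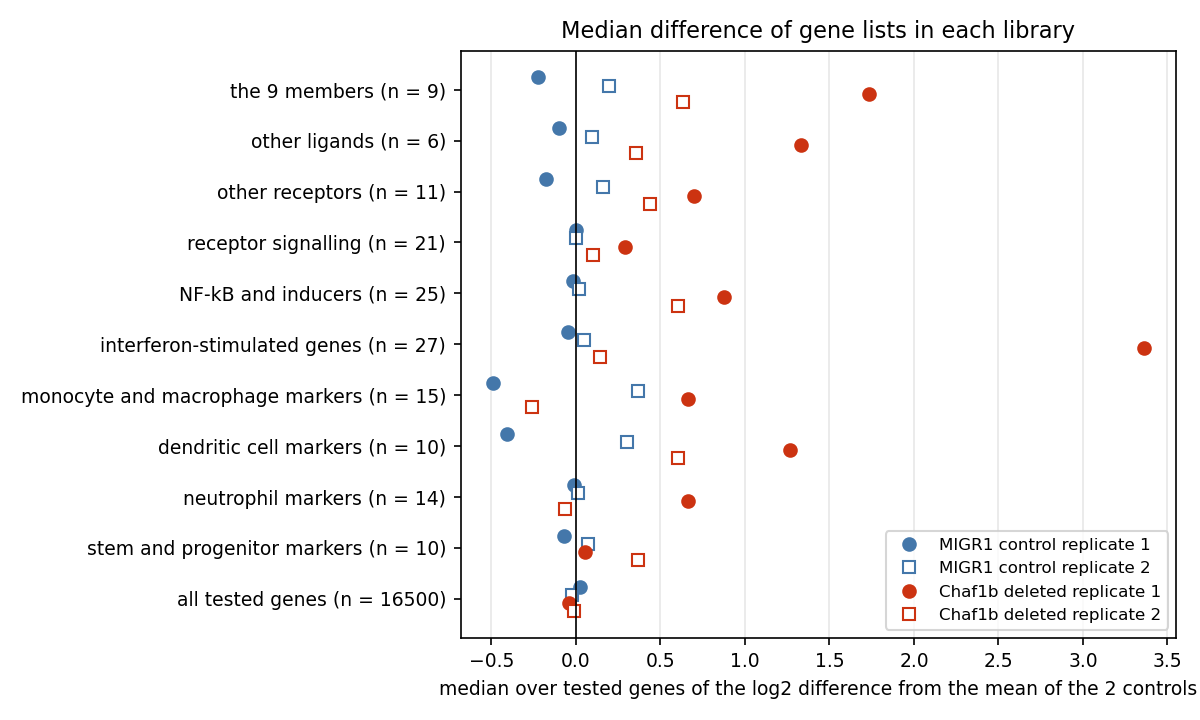
Median over the tested genes of each list of the log2 difference of a library from the mean of the 2 controls (TMM-scaled CPM plus 0.5). The members lie at 1.74 and 0.63 in the deleted libraries, interferon-stimulated genes at 3.36 and 0.14, and monocyte and macrophage markers are higher in control replicate 2 and deleted replicate 1 than in the others.

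Some markers of monocytes and macrophages had the split of Ccl2, Ccl7 and Ccl12, and others the order of the other 6 members. Of 15 tested markers among 16, 7 were over 2-fold higher in control replicate 2 than in control replicate 1, 7 in deleted replicate 1 than in deleted replicate 2, and 5 in both, beside 0.497% of all tested genes in both. For the members the last count was 3 of 9, namely Ccl2, Ccl7 and Ccl12. The summed level of the markers was 2760 and 4284 TMM-scaled CPM in the controls and 6110 and 3598 after deletion, Lyz2 was the most abundant per kilobase (1847, 2884, 3800 and 2513 TMM-scaled CPM, not divided by length), and none of the markers was at 0 in any library. None of the markers was a DEG, and the median log2 fold change was 0.42. Above both controls in each deleted library lay 6, beside 22.3% of all tested genes. At an unadjusted p under 0.05, 6 were higher, beside 9.15%. In bulk RNA, more cells of a type and more RNA per cell cannot be told apart, and the part of monocytes and macrophages in the values of the members was not tested.

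Some dendritic cell markers had the same split. Of 11 markers 10 were tested, and 4 were over 2-fold higher both in control replicate 2 over control replicate 1 and in deleted replicate 1 over deleted replicate 2. At an unadjusted p under 0.05 there were 3 higher and none lower, beside 9.15% and 3.1% of all tested genes. All 10 had a log2 fold change above 0, beside 7834 of all 16500 tested genes, with a median of 0.78. Only 4 lay above both controls in each deleted library and 0 below, beside 22.3% and 21.4% of all tested genes. The median difference from the mean control was 1.27 in deleted replicate 1 and 0.61 in deleted replicate 2. The summed level was 173 and 899 TMM-scaled CPM in the controls and 1318 and 457 after deletion, led per kilobase by Cd74 (86.3, 478, 612 and 204 TMM-scaled CPM), with no marker at 0. Neutrophil markers, 14 of 14 tested, summed to 54819 and 61289 in the controls, against 82625 and 53670 after deletion, led by S100a9, with no marker at 0 and a median log2 fold change of 0.34. Of these Cxcr2, a receptor for CXC chemokines, rose from 2868 and 2664 counts to 6986 and 6599 (log2 fold change 1.52, adjusted p = 0.0429, edgeR quasi-likelihood, Benjamini-Hochberg adjustment). It was not called without control replicate 2 (1.38), and was called in 6 of 11 other fits. Of the neutrophil markers 5 lay above and 1 below both controls in each deleted library, beside 22.3% and 21.4% of all tested genes. The part of dendritic cells and neutrophils in the values of the members was not tested.

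Stem and progenitor markers, 10 of 10 tested, summed to 988 and 967 TMM-scaled CPM in the controls and 870 and 882 after deletion, with a median log2 fold change of 0.12, Myb the most abundant per kilobase (475, 483, 321 and 315 TMM-scaled CPM) and no marker at 0. Flt3, the receptor of early multipotent progenitors, was the only DEG of the list (called in 7 of 11 other fits), rising from 106 and 135 counts to 454 and 419 (log2 fold change 2.09, adjusted p = 0.0383, edgeR quasi-likelihood, Benjamini-Hochberg adjustment). No DEG was found by that test in 8 further marker lists. Their median log2 fold change was -1.17 for eosinophils (6 tested, led by Prg2), -0.51 for erythroid cells (9, Tfrc), 0.49 for mast cells and basophils (8, Mcpt8), 0.57 for T and NK cells (5, Nkg7), 0.64 for megakaryocytes (8, Pf4), 0.84 for stroma (5, Thy1), 0.93 for B cells (7, Cd79b) and 1.41 for endothelial cells (5, Pecam1). The defining T cell genes Cd3e and Cd3g and the NK cell gene Ncr1 were at 0 in at least 1 library, and the stromal genes Dcn and Lum had at most 3 counts in each.

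Genes with the most similar profile were found by Euclidean distance of mean-centred log2 TMM-scaled CPM plus 0.5 over the 4 libraries, among 9291 genes with a mean of at least 10 CPM. For Ccl6 they were Itgax (distance 0.149), an integrin of dendritic cells and macrophages, H2afx (0.149), the histone variant of DNA damage foci, and Jund (0.162), an AP-1 factor. For Ccl3 they were its neighbour Ccl4 (0.20), Retnlg (0.301), a neutrophil secreted protein, and Trim30b (0.336). With 4 libraries many genes share a profile, and nothing follows on shared control.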

How the data were processed

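Raw counts per Ensembl gene were used as deposited: per the submitters' processing notes the authors aligned reads with STAR to mm9 and counted them with HTSeq, and neither the annotation release nor the strand setting is stated. Of 43629 identifiers, 33068 were named from the NCBIM37 annotation and 10561 were not, 10520 of them newer than it, and the named held between 96.9% and 98.4% of counts. The 5 summary rows were left out of totals, and reads on no annotated feature made up 42.3% and 42.1% of uniquely aligned reads in the controls and 35.8% and 48.3% in the deleted libraries. Fits used edgeR 4.0.16 (limma 3.58.1, R 4.3.3): filterByExpr with a minimum count of 10, TMM factors between 0.926 and 1.06, the quasi-likelihood test and Benjamini-Hochberg adjustment over 16500 genes, with a common dispersion of 0.0763. Alternatives were DESeq2 1.42.0, edgeR's exact test, other scalings, filters and thresholds, a replicate block and each library left out. Scripts were tested on simulated data, where the exact test and DESeq2 called more unchanged genes among their calls than the adjustment allows, and the quasi-likelihood test fewer than they did. Standard errors are the log2 fold change divided by the square root of the F statistic. Log2 differences between libraries used TMM-scaled CPM plus 0.5, and lengths are the union of annotated exons. Promoters are from RefSeq GRCm38.p6. Named genes were the members, DEGs of the lists, the 3 genes with the largest fold change in each pathway list and among neighbours within 200 kb, the most abundant gene of each marker list, the 3 nearest profiles of Ccl6 and Ccl3, label checks and genes overlapping a member. The members and lists were chosen with earlier results of these data known.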

Additional observations from a re-analysis of the deposited data

How the results depend on the processing

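Of the members' log2 fold changes under the alternatives, 26 kept their direction and passed the threshold that the fit of all libraries missed, whatever their size, and 6 reversed. In 70 direction and side of the threshold were kept or, where no test was made, the value moved by less than the spread between replicates, and 3 without a test moved by more: Ccl3 (1.37), Ccl4 (1.10) and Ccl5 (1.22) between deleted replicate 2 and control replicate 1. These 3 values also use CPM plus 0.5, unlike the fitted ones, so the 2 changes cannot be told apart. For Ccl5 the fit without deleted replicate 1 gave 2.77. Those that reversed were Ccl2 without Chaf1b deleted replicate 1 (-0.74), Ccl7 without MIGR1 control replicate 1 (-0.50), without deleted replicate 1 (-2.46) and between deleted replicate 2 and control replicate 1 alone (-0.10, an alternative chosen after seeing the data), and Ccl12 without control replicate 2 (2.11) and without deleted replicate 2 (0.30), and the cause was not tested. With a library left out, the log2 fold change lay between -0.74 and 2.61 for Ccl2, 1.51 and 2.73 for Ccl3, 1.37 and 2.74 for Ccl4, 2.77 and 4.50 for Ccl5, 1.26 and 2.08 for Ccl6, -2.46 and 2.52 for Ccl7, 0.63 and 1.14 for Ccl9, -3.42 and 2.11 for Ccl12 and 0.52 and 1.25 for Ccr1. Over all tested genes 61 were called higher and 1 lower, and 27 and 1 with DESeq2 size factors, 30 and 1 with library size only, 808 and 79 without a low-count filter, 3 and 0 with at least 10 counts in every library, which leaves out Ccl5, Ccl7 and Ccl12, 537 and 37 with edgeR's exact test, 472 and 34 with DESeq2, and 0 and 0 at 2-fold and an adjusted p under 0.01. With a library left out, between 125 and 331 were called higher and between 6 and 42 lower. The replicate numbers pair nothing by the labels, and same-numbered deviations had a correlation of 0.0133. With the number as a block 14 genes were called higher (0.0848% of tested genes) and 0 lower, with 0 members. Members called higher were 0 under the size factor, library size, stricter threshold and 10-count settings, 6 without a filter, 4 with the exact test, 4 with DESeq2 and between 2 and 4 with a library left out, and 0 were lower in each. In the 5 lists of ligands, receptors, signalling, NF-kB and interferon genes 2 genes were called higher and 0 lower, and 1 with size factors, 1 with library size, 44 (and 1 lower) without a filter, 0 with 10 counts, 0 with the block, 0 with the stricter threshold, 26 with the exact test, 17 with DESeq2, and between 4 and 34 higher and 0 and 2 lower with a library left out. The NF-kB list's single call was lost with size factors, library size, 10 counts, the stricter threshold and the block, and that of the other ligands with 10 counts, the stricter threshold and the block. Without a filter, with the exact test and with DESeq2, the NF-kB list had 11, 10 and 10 genes called higher and the other ligands 3, 2 and 3. Those fits called 2.57%, 3.25% and 2.86% of all tested genes higher, which also stands beside the 44, 26 and 17 of the 5 lists. Chaf1b was called in 9 of 11 other fits and lost with 10 counts and the block, Flt3 in 7 and Cxcr2 in 6. Without deleted replicate 1 the median log2 fold change was 0.48 for other ligands (1.38 with all libraries), 0.55 for other receptors (0.74), 0.61 for NF-kB (0.84) and 0.15 for interferon genes (2.59), without deleted replicate 2 it was 0.31 for signalling (0.17), and without a filter 0.53 for other ligands. Of the neighbouring genes 0 were called, against 1 higher and 1 lower without a filter and between 0 and 2 lower with a library left out. The cause of these differences was not tested. Depth limits Ccl5, Ccl7 and Ccl12, each with a library at 5 counts or fewer.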
